A study of Oryza sativa with 18 samples.

Results

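High-input and low-input maps of R-loops in rice were compared in 10 of the 18 libraries of the series. The high-input class held the 6 libraries titled 8 µg, 5 µg and 3 µg of fragmented DNA, and the low-input class held the 4 libraries titled 500 ng and 250 ng, with 2 libraries at each amount. The libraries were chosen by their titles alone, and the amounts of 1 µg and 100 ng, the RNase H control and the salt series stayed outside the comparison. All 10 libraries came from wild-type Oryza sativa seedlings (the tissue label reads "seeding"), and no salt treatment is given for them. Every library of both classes went through ISRH-seq, in which DNA sonicated to 200 to 500 bp was incubated with RNase H and DNA polymerase I at 16 °C for 2 h, so that the RNA strand of a hybrid is replaced by biotin-labelled DNA. The labelled strand was captured on streptavidin and sequenced as a single-stranded library. The labels give neither plant age nor whether libraries of 1 amount came from separate plants, so a p-value here compares the classes with the variation from library to library, which can be technical. A peak list holds no gene expression, so the tissue label could not be checked against marker genes.

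An R-loop is a three-stranded structure in which RNA pairs with 1 strand of the DNA duplex and leaves the other strand single. R-loops form mostly while RNA is being transcribed, lie in gene bodies and around promoters in plants, and are dissolved by RNase H, which digests RNA that is paired with DNA. Rice chromosomes carry dense repeats around the centromere and most of their active genes toward the arms, and the width of a peak is the stretch over which labelled DNA rose above background, so it holds both the length of the hybrid and the resolution of the assay.

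The lists differed in depth and in their smallest peak and smallest gap as well as in input amount. Whether the settings of the peak caller differed was not tested. Background coverage, the number of fragments that the peak caller placed over a typical position, was 11.4 and 12.7 at 8 µg, 5.07 and 7.09 at 5 µg, and 6.03 and 6.66 at 3 µg, against 4.82 and 4.96 at 500 ng and 6.10 and 4.90 at 250 ng. The difference in log2 background coverage was 0.58 (two-sided exact permutation p = 0.0286, n = 6 and 4). The smallest peak of a list, which also fixes the smallest gap that the caller leaves open, ranged from 195 to 226 bp at high input and from 218 to 235 bp at low input. Library codes in the peak names fall into 6 runs of consecutive numbers in these 10 libraries, and 1 run, with 5 µg replicate 1, 3 µg replicate 1 and 500 ng replicate 1, held both classes. Input amount and code run cannot be told apart in the other runs. Peak names carry the word "single" in 8 µg replicate 1 and "merge" in 8 µg replicate 2, and "uniq" in all other compared lists. Whether these words mark a difference in processing was not tested. Since the 8 µg libraries stood apart in depth and in these words, values without them are given where they bear on a result. The same holds for values at a constant background coverage (a linear term). Values from the run that held both classes are given beside the results as a within-run comparison without a test.

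High-input lists held more peaks, and those peaks were narrower and closer together than at low input. Peak numbers ran from 48308 to 70518 at high input, with a median of 58441, whereas the low-input lists held 45829 and 46310 peaks at 500 ng and 43744 and 45249 peaks at 250 ng. The shortest high-input list was longer than every low-input list, and the mean difference was 0.35 on the log2 scale (exact permutation, adjusted p = 0.0143 over 12 single-value tests). With 6 and 4 libraries the smallest two-sided p that the exact test allows is 0.00952, which becomes 0.0143 after Benjamini-Hochberg adjustment. The call on peak number did not hold at constant background coverage, where the difference was 0.15 (adjusted p = 0.149), or in lists with the same smallest gap and smallest width, where it was 0.23 (adjusted p = 0.19). Within the run that held both classes the difference was 0.08.

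The number of bases under peaks did not follow the number of peaks. Covered length was 28.7 ± 6.16 Mb at high input and 26.0 ± 1.23 Mb at low input (SD, n = 6 and 4), a log2 difference of 0.11 that did not pass the test (exact permutation, adjusted p = 0.514). The low-input lists covered between 24.8 and 27.1 Mb, inside the range of 21.7 to 36.7 Mb at high input. Its sign depended on the 8 µg libraries, because without them the log2 difference was -0.06.

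Peaks were narrower at high input on average, at the 10th percentile, the median and the 90th percentile of width. Median peak width was 431 and 436 bp at 8 µg, 379 and 413 bp at 5 µg, and 398 and 390 bp at 3 µg, against 470 and 504 bp at 500 ng and 491 and 514 bp at 250 ng. Every high-input list had a lower median than every low-input list, and the mean difference was -86.9 bp (exact permutation, adjusted p = 0.0143). The 10th percentile of width was 235.5 bp at high input and 271 bp at low input (difference -35.5 bp, exact permutation p = 0.00952), and the 90th percentile was 852 bp and 979.5 bp (difference -128 bp, exact permutation p = 0.0286). The 10th percentile lies close to the smallest peak of a list, which averaged 206 bp at high input and 225 bp at low input. At the 90th percentile the classes overlapped, since both 8 µg lists (939 and 926 bp) lay above 500 ng replicate 1 (916 bp). The widest peak of a list averaged 4329.5 bp at high input and 3740.5 bp at low input. The within-run difference in median width was -81.5 bp, and it was -99.8 bp without the 8 µg libraries and -109 bp at constant background coverage. When each list was shortened to its best 43744 peaks, the number in the shortest list, the difference in median width was -36.4 bp and did not pass (exact permutation, adjusted p = 0.354).

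Wide peaks made up a larger share of the low-input lists. Peaks of 1 kb or wider made up 3.00% to 7.86% of the high-input lists, with a median of 5.02%, against 7.05% and 10.0% at 500 ng and 9.39% and 10.7% at 250 ng. The classes overlapped, since both 8 µg lists lay above 500 ng replicate 1. The mean difference was -3.97 percentage points (exact permutation, adjusted p = 0.0343), and 7 of the 10 lists could not be left out without losing the call (both 5 µg, both 3 µg, 500 ng replicate 2 and both 250 ng lists, with differences of -4.02 to -3.51 points).

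Gaps between peaks were shorter at high input. The median gap from one peak to the next was 3142 and 3473 bp at 8 µg, 5014 and 4065 bp at 5 µg, and 5156 and 4050.5 bp at 3 µg, against 5231 and 5076 bp at 500 ng and 5386.5 and 5185 bp at 250 ng. The mean difference of -1070 bp passed the test (exact permutation, adjusted p = 0.0254). In equally long lists the sign turned to +121 bp (adjusted p = 0.049), and the call was also lost without the 8 µg libraries (-648 bp, adjusted p = 0.0686), in harmonised lists (-618 bp, adjusted p = 0.297), at constant background coverage (-342 bp, adjusted p = 0.322) and, among single lists left out, without 500 ng replicate 1, 250 ng replicate 1 or 250 ng replicate 2 (-1271 to -868 bp over all 10 lists left out in turn). Within the mixed run the difference was -146 bp.

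Close neighbours were more frequent at high input. Gaps of 500 bp or less were 7.06% to 11.2% of all gaps at high input, with a median of 8.80%, against 5.92% and 5.60% at 500 ng and 5.28% and 5.29% at 250 ng. No high-input list reached as low as any low-input list, and the difference of 3.26 percentage points passed (exact permutation, adjusted p = 0.0143), with 1.53 points within the mixed run. The smallest gap that a list can show differs between the classes, and in lists harmonised to the same smallest gap of 236 bp and smallest width of 235 bp the difference was 1.69 points (adjusted p = 0.114).

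**Figure D1:**
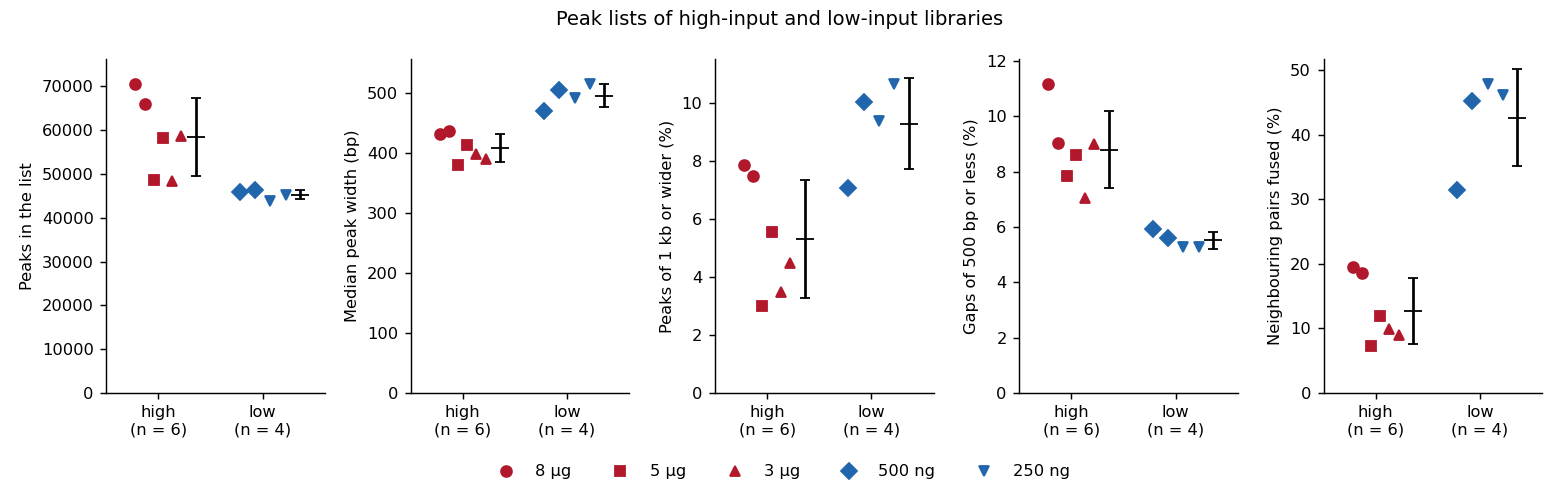
Each point is 1 library, with high-input libraries (red, n = 6) left of low-input libraries (blue, n = 4), and black bars give the mean ± SD. The panels show peaks per list, median width in bp, peaks of 1 kb or wider in percent, gaps of 500 bp or less in percent, and neighbouring pairs covered by 1 peak in percent. The classes do not overlap except for peaks of 1 kb or wider, where both 8 µg lists lie above 500 ng replicate 1 at 7.05%.

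Neighbouring peaks of the high-input lists were covered by a single peak at low input far more often than in other high-input lists. Pairs of neighbours with a gap of up to 1000 bp were taken from each high-input list, 10383 pairs per list on average, and looked up in the other lists. Among pairs whose members both overlapped a peak, 1 peak covered both in 19.5% and 18.5% of cases at 8 µg, 7.27% and 11.9% at 5 µg, and 9.91% and 8.90% at 3 µg, against 31.4% and 45.2% at 500 ng and 47.8% and 46.1% at 250 ng. No high-input list came near the lowest low-input list, and the means were 12.7 ± 5.15% at high input and 42.6 ± 7.54% at low input (SD, n = 6 and 4). The difference was -30.0 percentage points (exact permutation, adjusted p = 0.0143). Each pair was taken because a high-input list left a gap there, so the choice of pairs is not neutral between the classes. The p-value does not allow for that choice, and pairs taken from low-input lists gave 16.2% in high-input and 16.1% in low-input lists. For the high-input pairs the difference was -31.6 points without the 8 µg libraries and -35.9 points at constant background coverage. The difference was -26.0 points in the harmonised lists, -22.8 points within the mixed run, and -20.4 points for pairs taken from 4 libraries outside the comparison (both 1 µg and both CK(salt) libraries). Of these, 1 µg replicate 1 and the CK(salt) libraries covered 14.2%, 13.8% and 11.1% of the high-input pairs with 1 peak. Those values lie within the high-input range, so such pairs are not a source apart from that class.

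Fusion was not the commonest outcome for such a pair. In other high-input lists 58.2% of the pairs stayed separate, 9.49% were covered by 1 peak, 27.8% had a peak at only 1 of the members and 4.42% had a peak at neither. In low-input lists 21.5% stayed separate, 15.7% were covered by 1 peak, 45.0% kept only 1 member and 17.8% kept neither. The loss of 1 member was thus the largest class at low input, and the share that kept 1 member ranged only from 44.3% to 46.0% over the 4 low-input lists.

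The reverse lookup gave no such asymmetry. For neighbouring pairs of the low-input lists, 1 peak covered both members in 16.2% of cases in high-input lists and 16.1% in other low-input lists, a difference of 0.01 percentage points (exact permutation, adjusted p = 0.981). In harmonised lists the difference for these pairs was 3.39 points (adjusted p = 0.229). The asymmetry thus belonged to pairs that a high-input list resolved, and such pairs were chosen because that list left a gap between them.

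The gap between the members set how often a pair was covered by 1 peak. At gaps of 300 bp or less the share was 40.6 ± 14.4% in high-input lists and 72.5 ± 6.27% in low-input lists (SD, n = 6 and 4). At 400 to 500 bp it was 5.49 ± 3.25% in high-input lists and 41.1 ± 8.65% in low-input lists, and at 700 to 1000 bp it was 0.559 ± 0.603% in high-input lists and 11.6 ± 4.04% in low-input lists. The classes did not overlap in any of the 5 gap classes, and a gap over 400 bp is longer than the smallest gap of any of these lists (196 to 236 bp). When pairs up to 3000 bp apart were used the overall difference was -16.1 points, and with pairs up to 300 bp apart it was -31.8 points (adjusted p = 0.0143 in each, exact permutation). These pairs, too, were chosen from the high-input lists.

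**Figure D2:**
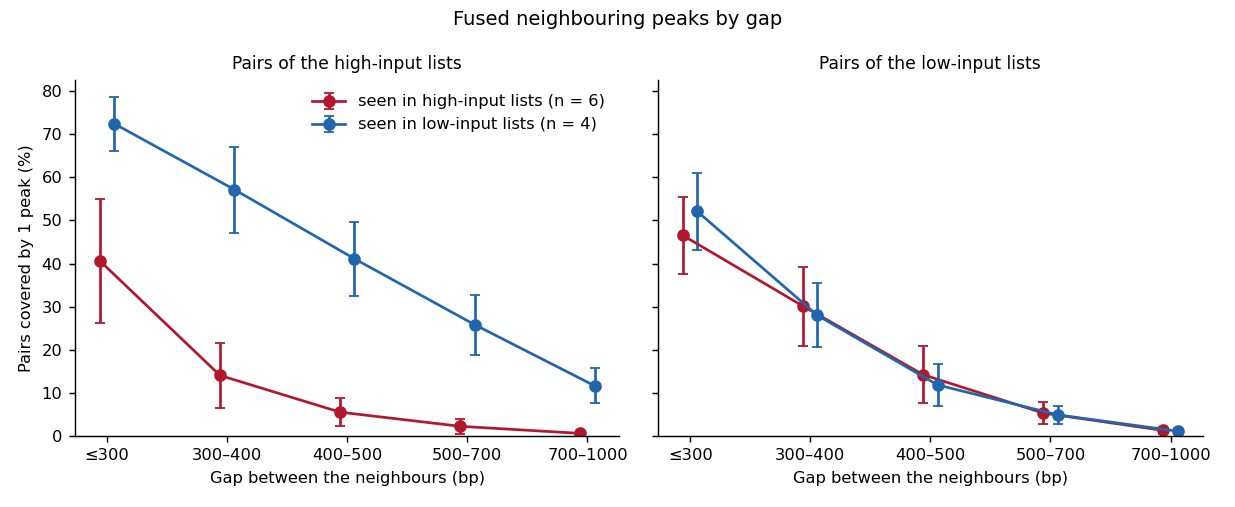
The vertical axis gives the percent of neighbouring pairs covered by 1 peak and the horizontal axis the gap between the neighbours in bp, for pairs taken from high-input lists (left) and from low-input lists (right). Points are means over the 6 high-input libraries (red) and the 4 low-input libraries (blue), with SD bars. Pairs of high-input lists separate the classes at every gap, from 40.6% and 72.5% at 300 bp or less to 0.559% and 11.6% at 700 to 1000 bp, whereas for pairs of low-input lists the curves overlap.

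Fused pairs were found along the whole chromosome. Within 2 Mb of a centromere midpoint, 11.4 ± 5.52% of the high-input pairs were covered by 1 peak in high-input lists and 32.2 ± 5.91% in low-input lists. Within 2 Mb of a chromosome end these shares were 12.6 ± 4.93% in high-input lists and 47.2 ± 8.87% in low-input lists, and elsewhere they were 12.8 ± 5.16% and 43.2 ± 7.54%. The gap between the classes was present in all 3 zones. Whether it differed between the zones was not tested.

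Fusion accounted for a small part of the mean difference in peak number, and for a larger part where 2 lists were close in length. Over the 24 pairs of 1 high-input and 1 low-input list, the high-input list held 13106 more peaks on average. Of its peaks, 23802 had no overlap in the low-input list, and 11855 peaks of the low-input list had none in the high-input list. Places with more high-input than low-input peaks contributed 1534 extra peaks and places of the opposite kind 375, a net of 1159 peaks or 8.84% of the mean difference, positive in 24 of 24 list pairs. Within the mixed run, 5 µg replicate 1 held 2843 more peaks than 500 ng replicate 1, with 1257 extra peaks and 201 of the opposite kind. For 3 µg replicate 1 against the same list the difference was 2479 peaks, with 1072 and 277. A low-input peak overlapped 2 or more high-input peaks in 3.41% of cases, and a high-input peak overlapped 2 or more low-input peaks in 0.684% of cases. Between lists of the same class the share was 1.37% at high input and 1.30% at low input.

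Places where the pattern held in every library were few. One peak of all 4 low-input libraries spanned 2 or more peaks of all 6 high-input libraries at 120 places, which was 0.564% of the 21288 places with a low-input peak common to all 4 lists and a peak in every high-input list. The reverse arrangement was found at 9 places, which was 0.0428% of 21038. Harmonised lists gave 61 and 11 places. With the 8 µg libraries left out, so that 4 high-input lists had to show the pattern, there were 219 and 9. All 12 chromosomes carried such places, and chromosome 1 had 20 (16.7%), chromosome 6 had 19 (15.8%) and chromosome 3 had 16 (13.3%), with 12.81%, 8.35% and 10.99% of all merged regions on these chromosomes. Of them, 49 (40.8%) lay on the shorter arms, 14 (11.7%) within 2 Mb of a chromosome end and 7 (5.83%) within 2 Mb of a centromere, zones that hold 37.05%, 13.002% and 10.01% of all merged regions. The median low-input peak at these places was 1303 bp wide.

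By the median over the 4 low-input lists, the place with the widest peak was chr7:18265429-18268350 (1-based, in the coordinates of the deposited lists, whose genome build the sources used here do not name). There the gap between the high-input peaks was 241 and 948 bp at 8 µg, 796 and 963 bp at 5 µg, and 824 and 998 bp at 3 µg, whereas 1 peak of 1477 and 2813 bp at 500 ng and of 2831 and 2750 bp at 250 ng bridged it. The peak of 500 ng replicate 1 was much narrower than the other 3, and a second peak of that library lay apart from it. At chr9:4693002-4695537, on the long arm and 1.89 Mb from the centromere midpoint, high-input gaps were 256 and 308 bp at 8 µg, 276 and 305 bp at 5 µg, and 264 and 316 bp at 3 µg, and the low-input peaks were 2434, 2476, 2505 and 2499 bp wide. The outer borders of the high-input pair and of the low-input peak lay close together here.

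At chr4:7310910-7313314 the bridged stretch was longer than any high-input peak beside it. The gaps ran from 1524 to 1621 bp in the 6 high-input libraries, and the low-input peaks were 2405 and 2253 bp at 500 ng and 2142 and 2229 bp at 250 ng. This was also the widest gap among the 120 places, whose smallest high-input gap had a median of 287 bp. The place at chr1:39725126-39727484 was similar, with gaps of 989 to 1310 bp at high input and peaks of 2120 and 2175 bp at 500 ng and 1866 and 2295 bp at 250 ng. The other 6 of the 10 named places had median low-input widths from 1844 bp (chr2:35409032-35410983) to 2144 bp (chr9:13164307-13166648). They included chr1:7307809-7309990, chr11:3368000-3370840, chr8:25050949-25053103 and chr6:22119051-22121148. No gene could be named at these places, because no annotation of the lists' build was at hand.

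**Figure D3:**
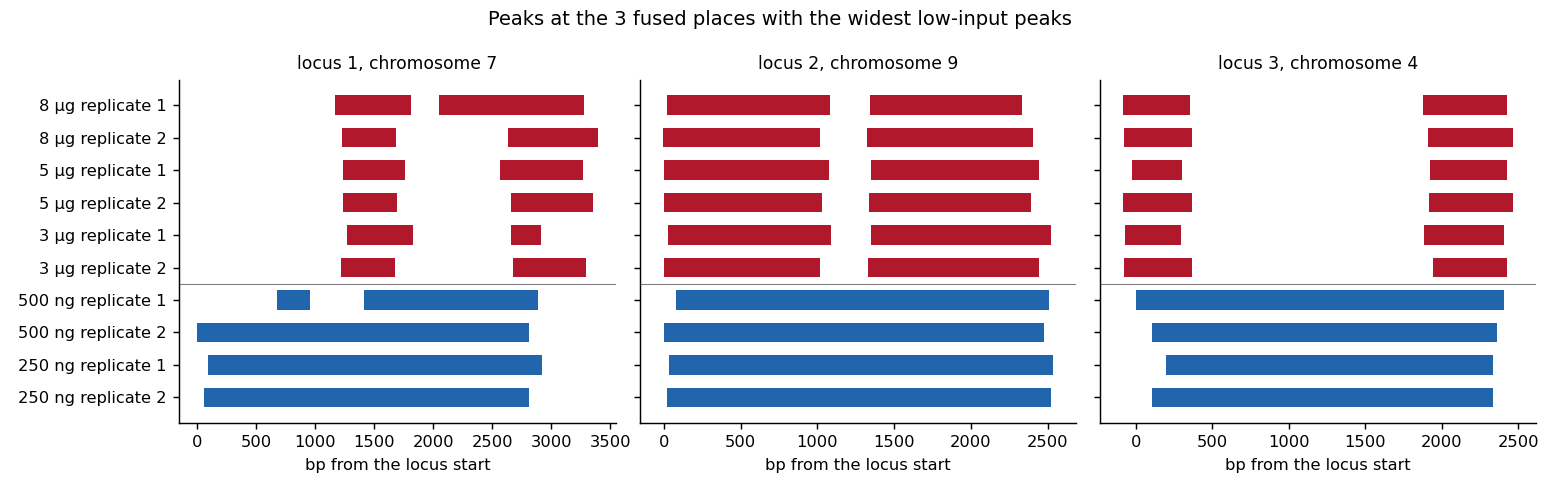
Bars are peaks at the 3 places with the widest low-input peaks, drawn in bp from the start of the place, with the 6 high-input libraries (red) above the 4 low-input libraries (blue). Each high-input library shows 2 separate peaks, and each low-input library has 1 peak that reaches both, with gaps of 241 to 998 bp on chromosome 7, 256 to 316 bp on chromosome 9 and 1524 to 1621 bp on chromosome 4.

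Where every library had a single peak, the difference in median width did not pass the test, and both its sign and its call depended on the setting. Merging the 10 lists gave 87218 regions, of which 16074 (18.4%) held exactly 1 peak in every library. Over these regions median width was 689 and 646 bp at 8 µg, 535 and 603 bp at 5 µg, and 550 and 576 bp at 3 µg, against 573 and 579 bp at 500 ng and 535 and 585 bp at 250 ng. The ranges overlapped, and the difference of 31.8 bp did not pass (exact permutation, adjusted p = 0.416). It was 59.7 bp and passed (adjusted p = 0.0127) when the single peaks had to cover at least 0.5 of each other, and it was -10.8 bp without the 8 µg libraries, -21.1 bp at constant background coverage and -30.5 bp within the mixed run.

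Single regions went both ways. With limma on log2 width, a test added after the lists had been seen, 6102 of 16074 regions (38%) passed an adjusted p of 0.05, 3834 of them wider (23.9%) and 2268 narrower (14.1%) at high input. The median of all regions was 0.13 higher at high input on the log2 scale. The classes did not overlap in 4088 regions (25.4%): every high-input peak was wider than every low-input peak in 2610 regions (16.2%), and the opposite held in 1478 regions (9.19%). The balance turned under both of these alternatives: at constant background coverage 1053 regions passed as wider and 2168 as narrower at high input, and without the 8 µg libraries 1863 and 2831. Wide regions leaned to high input, with low-input peaks wider in 45.6% of the narrowest and in 32.0% of the widest of 4 width classes of about equal size. The width classes were cut on the mean width in these same lists, most of them high-input, so the sorting and the lean are not independent. No value without the 8 µg libraries is given for this lean.

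Peaks were also split by how many lists of the other class held them. A high-input peak was looked up in 4 shorter lists and a low-input peak in 6 longer ones, so the shares of peaks without a match are not on equal terms, and in equally long lists regions of 1 class alone were fewer at high input (given below). Peaks found in no list of the other class made up 25.7 ± 7.39% of the high-input lists and 13.6 ± 3.49% of the low-input lists (SD, n = 6 and 4), with median widths of 281 ± 26.3 bp at high input and 369 ± 16.1 bp at low input. Peaks found in every list of the other class made up 45.6 ± 5.96% of the high-input lists and 60.3 ± 4.70% of the low-input lists. Their median widths were 562 ± 61.5 bp at high input and 552 ± 25.5 bp at low input, which differed by less than the SD of either class. Peaks found in some lists of the other class lay between, at 384 ± 41.8 bp at high input and 452 ± 32.3 bp at low input.

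High-input peaks were spread more evenly along the arms. Distances were measured to textbook centromere midpoints of the rice reference assembly, rounded to 0.1 Mb and not taken from these files. The sparsest 1 Mb window of the chromosome, taken from libraries outside the comparison, lay within 1 Mb of the midpoint on 5 of 12 chromosomes and within 2 Mb on 7. The share of peaks within 2 Mb of a centromere was 9.84% to 10.1% at high input, with a median of 9.99%, against 9.42% and 9.53% at 500 ng, and 9.48% and 9.41% at 250 ng. The classes did not overlap, and the difference of 0.52 percentage points passed (exact permutation, adjusted p = 0.0143). This zone makes up 12.9% of the chromosome length, so both classes had fewer peaks there than an even spread would give. The within-run difference was 0.59 points, and over all alternatives run the difference ranged from 0.26 to 1.70 points.

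The position of a peak along its arm moved the same way. On a scale from 0 at the centromere to 1 at the chromosome end, the median peak lay at 0.533 to 0.539 at high input, with a median of 0.537, against 0.551 and 0.550 at 500 ng and 0.552 and 0.552 at 250 ng. All high-input values were below all low-input values, and the difference was -0.0148 (exact permutation, adjusted p = 0.0143). Peak density relative to the list's mean was 0.675 ± 0.0056 at high input and 0.635 ± 0.0050 at low input in the first 1 Mb from the centromere. Beyond 16 Mb it was 1.12 ± 0.013 at high input and 1.21 ± 0.013 at low input (SD, n = 6 and 4). The classes did not overlap in any of the 7 distance classes, and the sign turned between 4 to 8 Mb, where the ratio of high to low input was 1.04, and 8 to 12 Mb, where it was 0.983.

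Chromosome ends departed from this gradient. The share of peaks within 2 Mb of an end was 13.15% to 13.36% at high input, with a median of 13.29%, against 13.06% and 12.78% at 500 ng and 12.82% and 13.01% at 250 ng. The difference of 0.35 percentage points passed (exact permutation, adjusted p = 0.0143), was 0.17 points within the mixed run, and turned to -0.27 points when the limit was 5 Mb (adjusted p = 0.0343). By distance class, relative density in the outermost 1 Mb was 1.05 ± 0.010 at high input and 0.973 ± 0.026 at low input, whereas at 2 to 4 Mb it was 1.04 ± 0.006 at high input and 1.07 ± 0.004 at low input. At 1 to 2 Mb the classes overlapped. Ends of the shorter arms held 6.23 ± 0.049% of the peaks at high input and 5.94 ± 0.108% at low input, and ends of the longer arms held 7.04 ± 0.067% and 6.97 ± 0.038%.

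**Figure D4:**
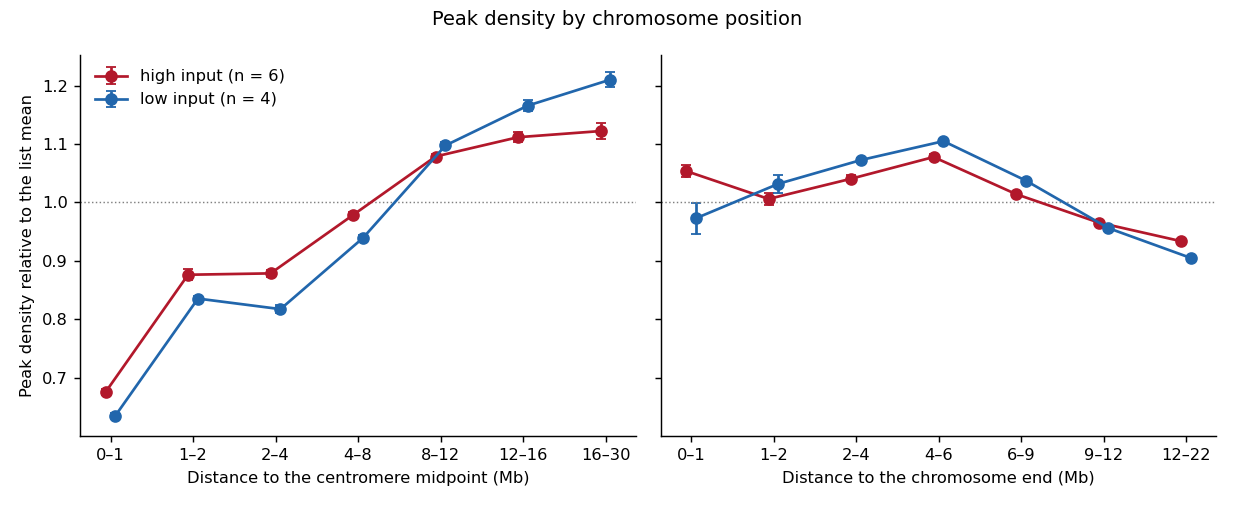
The vertical axis is peak density relative to the mean of the list, against distance in Mb to the centromere midpoint (left) and to the chromosome end (right), as means ± SD over the 6 high-input (red) and 4 low-input libraries (blue). High-input density is above low-input density near centromeres (0.675 and 0.635 in the first 1 Mb) and in the outermost 1 Mb (1.05 and 0.973), and below it more than 8 Mb from the centromere.

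The shorter arms gained share at high input. They carried 37.09% to 37.62% of the peaks at high input, with a median of 37.54%, against 36.57% and 36.09% at 500 ng and 36.04% and 35.95% at 250 ng. The classes did not overlap, and the difference of 1.30 percentage points passed (exact permutation, adjusted p = 0.0143), with 0.96 points within the mixed run, 1.38 points without the 8 µg libraries and 1.41 points at constant background coverage. Shorter means shorter in bp in these lists, which on chromosome 3 is the arm after the centromere.

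Of the 24 arms, 19 (79.2%) passed limma at an adjusted p of 0.05, 12 with higher (50%) and 7 with lower (29.2%) density at high input relative to the whole list. With most arms called, a single call says little about that arm, and a relative density that goes up in some arms has to go down in others. All 9 of the 12 shorter arms that passed were higher at high input, whereas 3 of the longer arms were higher and 7 lower. In 15 arms (62.5%) the classes did not overlap.

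The short arm of chromosome 11 had the largest difference. Its relative density was 0.922 and 0.937 at 8 µg, 0.891 and 0.919 at 5 µg, and 0.892 and 0.917 at 3 µg, against 0.849 and 0.826 at 500 ng and 0.812 and 0.814 at 250 ng. All high-input values were above all low-input values, and the log2 difference was 0.15 ± 0.02 (SE, limma, adjusted p = 5.8e-07). It was followed by the short arms of chromosome 12 (0.11 ± 0.01), chromosome 10 (0.11 ± 0.01), chromosome 5 (0.10 ± 0.01) and chromosome 9 (0.10 ± 0.02). Smaller rises were measured on the long arms of chromosome 12 (0.09), chromosome 11 (0.05) and chromosome 6 (0.04). The remaining short arms with a rise were those of chromosome 4 (0.07), chromosome 8 (0.05), chromosome 7 (0.05) and chromosome 2 (0.04).

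The long arm of chromosome 4 fell most. Its relative density was 0.999 and 0.971 at 8 µg, 0.953 and 0.981 at 5 µg, and 0.946 and 0.977 at 3 µg, against 1.02 and 1.05 at 500 ng and 1.05 and 1.06 at 250 ng, a log2 difference of -0.11 ± 0.01 (SE, limma, adjusted p = 2.17e-06). The long arms of chromosome 1 (-0.09), chromosome 3 (-0.06), chromosome 2 (-0.04), chromosome 5 (-0.04), chromosome 7 (-0.03) and chromosome 10 (-0.03) were lower too. The smallest of these calls were the least stable. The long arm of chromosome 7 lost its call without any 1 of 5 µg replicate 2, 3 µg replicate 1, 500 ng replicate 2, 250 ng replicate 1 or 250 ng replicate 2, at log2 differences of -0.03 to -0.02. The short arm of chromosome 2 lost it without 500 ng replicate 2 or 250 ng replicate 1, at 0.03.

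**Figure D5:**
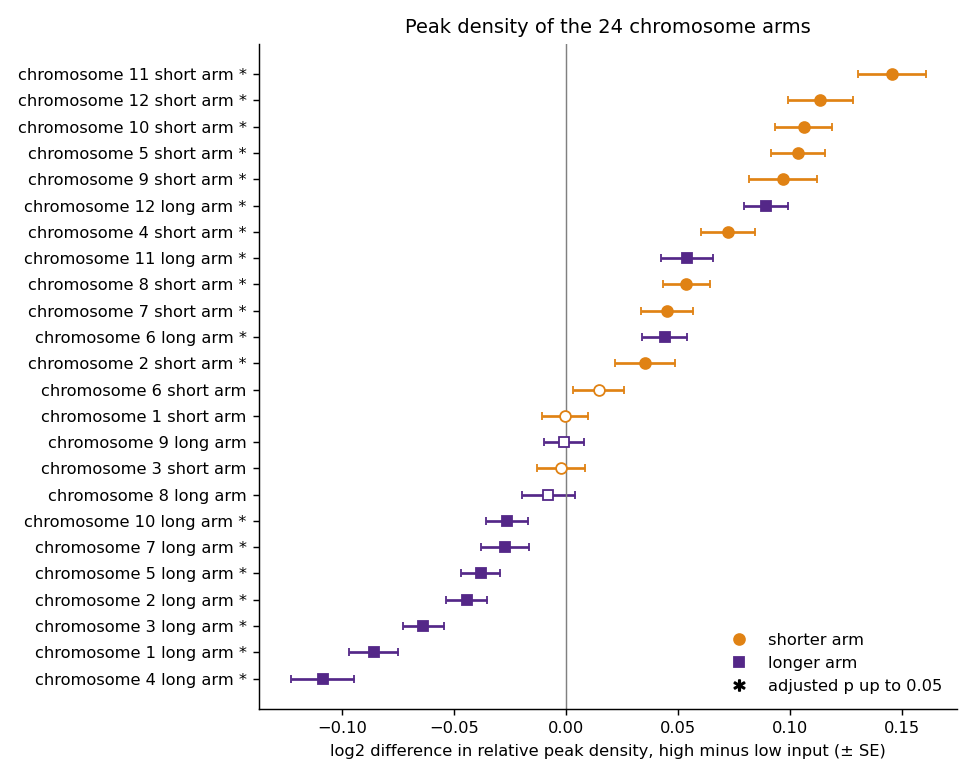
Each point is the log2 difference in relative peak density of 1 arm, high minus low input, with the limma SE, and the 24 arms are ordered from the largest rise to the largest fall. Orange circles are shorter arms, purple squares are longer arms, and filled points with an asterisk passed an adjusted p of 0.05. The range is 0.15 on the short arm of chromosome 11 to -0.11 on the long arm of chromosome 4.

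At 1 Mb resolution 216 of 378 windows (57.1%) passed limma at an adjusted p of 0.05, 125 with a higher (33.1%) and 91 with a lower (24.1%) share of the list at high input. In 135 windows (35.7%) the classes did not overlap. All 378 windows held more peaks at high input on average, and without the 8 µg libraries 362 did, the other 16 all being windows called lower. The median ratio of peak numbers, high to low input, was 1.43 in windows called higher, 1.18 in windows called lower and 1.30 in windows that were not called, and without the 8 µg libraries it was 1.31, 1.07 and 1.18. Windows called higher lay a median of 4.70 Mb from the centromere midpoint and were on shorter arms in 49.6% of cases. Windows called lower lay 13.6 Mb from it and were on shorter arms in 15.4% of cases, and over all windows these values were 8.10 Mb and 38.6%. Windows called higher were also sparser, at a median of 22.8 peaks per 10000 peaks of a list, than windows called lower, at 32.4.

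Denser windows had lower log2 differences. Across the 378 windows the log2 difference correlated with the mean log2 level at r = -0.57 (Spearman's rho -0.64), and with distance to the centromere at r = -0.46 (rho -0.50). These are descriptions across windows that share the same 10 libraries, and density and distance from the centromere are themselves linked.

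Of the 10 largest rises, 4 lay in the outer 2 Mb of a chromosome. The last window of chromosome 3, from 36000001 to 36413714, held 13.95 to 14.95 peaks per 10000 at high input, with a mean of 14.6, against 11.8 and 10.8 at 500 ng and 10.3 and 9.28 at 250 ng (log2 difference 0.44 ± 0.04 SE). The first 1 Mb of chromosome 11 held 19.1 ± 0.57 at high input and 14.0 ± 0.95 at low input (0.43 ± 0.04), and the window after it held 18.3 ± 0.11 and 13.6 ± 0.70 (0.41 ± 0.03). The first 1 Mb of chromosome 12 held 19.8 ± 1.26 at high input and 15.3 ± 1.56 at low input (0.36 ± 0.05). That all high-input lists were above all low-input lists in these windows was a condition for naming them. The classes did not overlap in 135 of the 378 windows tested.

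The other 6 largest rises lay farther than 2 Mb from a chromosome end. The windows starting at 14000001 and 6000001 on chromosome 12 differed by 0.37 and 0.30 on the log2 scale, with 0.33 for chromosome 5 from 10000001, 0.32 for chromosome 9 from 7000001, 0.30 for chromosome 6 from 18000001 and 0.27 for chromosome 2 from 13000001. The window on chromosome 2 held the centromere midpoint used here.

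The 10 largest falls in share were all on longer arms, 5 of them on chromosome 4, 3 on chromosome 1 and the others on chromosomes 2 and 10. The window of chromosome 1 from 33000001 to 34000000 held 28.4 to 30.4 peaks per 10000 at high input, with a mean of 29.3, against 34.3 and 37.1 at 500 ng and 37.7 and 36.9 at 250 ng (log2 difference -0.31 ± 0.03 SE). In peak numbers it held 209 and 187 at 8 µg and 157 on average at 5 and 3 µg, against 165 on average at low input, so the direction in peak numbers differed between the 8 µg lists and the other high-input lists. On chromosome 4 the windows starting at 33000001, 32000001, 26000001, 28000001 and 30000001 differed by -0.30, -0.30, -0.29, -0.29 and -0.28. Chromosome 1 differed by -0.28 in the windows from 37000001 and from 31000001, chromosome 10 by -0.26 in the window from 15000001, and chromosome 2 by -0.26 in the window from 32000001. All 20 named windows kept their direction and their call in the 420 values from alternatives with 1 Mb windows.

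Some regions belonged to 1 class as a whole. A peak was found in each of the 10 lists in 22368 of the 87218 regions (25.6%), in all 6 high-input and 0 of 4 low-input lists in 3456 regions (3.96%), and in all 4 low-input and 0 of 6 high-input lists in 2237 regions (2.56%). These counts have no test and moved with the lists. Without 500 ng replicate 1 there were 5756 high-input regions and 3664 low-input regions, and without 8 µg replicate 1 there were 3687 low-input regions. In harmonised lists there were 2271 and 2497, and in equally long lists 2154 and 4462.

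In position, regions of the low-input class alone lay farther from the values of all regions than regions of the high-input class alone did. The set of all regions was merged from 6 high-input lists and 4 shorter low-input lists, so this comparison is not on equal terms. Within 2 Mb of a centromere lay 9.98% of the peaks of a high-input list and 9.46% of those of a low-input list on average. Regions of the high-input class alone lay within 2 Mb of a centromere in 10.4% of cases and regions of the low-input class alone in 5.99%, with 10.0% of all regions there. They were on shorter arms in 38.4% and 32.5% of cases, with 37.1% of all regions, and their median position along the arm was 0.509 and 0.611, with 0.540 for all regions. Within 2 Mb of a chromosome end lay 12.67% of the high-input regions and 10.73% of the low-input regions, with 13.002% of all regions. Regions of the high-input class alone thus had no higher share at chromosome ends than all regions. Regions were 468 bp long at the median in the high-input class and 629 bp in the low-input class. The nearest peak of the other class lay 1557 bp away from high-input regions and 988 bp away from low-input regions at the median, and within 500 bp for 17.9% and 27.6% of them. These distances are not on equal terms either, since the first is to peaks of 4 shorter lists and the second to peaks of 6 longer ones.

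The high-input regions with the widest peaks were chr8:24273243-24274944 (median peak 1378 bp), chr6:22557219-22558603 (1322 bp), chr10:12791848-12793328 (1274 bp), chr4:23775095-23776985 (1247 bp) and chr6:19969984-19971504 (1226 bp). Each also had a peak in 4 to 6 of the 7 libraries outside the comparison. The low-input regions with the widest peaks were chr1:3958839-3961759 (2643 bp), chr3:5596984-5599864 (2347.5 bp), chr1:24785477-24787321 (1760.5 bp), chr2:31824047-31826021 (1745 bp) and chr4:28879235-28881181 (1727 bp). Each of these had a peak in 1 of those 7 libraries, and in all 5 cases it was 1 µg replicate 2.

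The libraries at 1 µg, an amount between the classes, divided along the same lines. 1 µg replicate 1 shares its code run with 5 µg replicate 2 and 3 µg replicate 2, and 1 µg replicate 2 with 500 ng replicate 2. Replicate 1 had a median width of 422 bp, 37.5% of its peaks on shorter arms and 14.2% of the high-input pairs covered by 1 peak. Replicate 2 had a median width of 479 bp, 36.4% on shorter arms and 32.7% of those pairs covered by 1 peak. Regions found only in the low-input class had a peak in 4.51% of cases in replicate 1 and in 91.3% in replicate 2, and regions found only in the high-input class in 88.3% and 28.9%. Over all merged regions the shares were 59.2% in replicate 1 and 54.5% in replicate 2. Both libraries carry the same amount in their titles, so these values differed at a constant amount. Replicates 1 and 2 differed both in code run and in background coverage (7.84 and 4.99), which cannot be told apart here. Input amount and code run cannot be told apart outside the 1 run that held both classes. At 100 ng, where the list had 14845 peaks, 1.54% of the high-input pairs were covered by 1 peak and the median width was 273 bp. Its background coverage was 0.881, far below the 4.82 to 6.10 of the low-input lists, so these values cannot be set against input amount alone.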

How the data were processed

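The submitters' processing notes name Bowtie2 and, for the peaks, MACS2 2.1.4. The genome build, any control library and duplicate handling are not given in the sources used here. The authors deposited 1 headerless peak list per library, with a score, a fold (the ratio of summit pileup to background) and −log10 p-values and q-values for each peak. Only positions were compared. The deposited fold and p-value were used to solve background coverage, and the q-value to shorten lists.

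Merged regions joined peaks sharing at least 1 bp across the 10 lists. Single values were tested with two-sided exact permutation (scipy 1.17.1, 210 regroupings) and Benjamini-Hochberg adjustment over 12 results. Arms, 1 Mb windows (at least 5 peaks per library on average, log2 of peaks per 10000 plus 1) and widths were tested with limma 3.58.1 in R 4.3.3. Harmonised lists were joined and filtered to the largest smallest gap and width of the 10 lists. The code was tested on simulated data. Named items were all arms called, the 10 windows with the largest rises and falls among called windows whose classes did not overlap, the 10 fused places with the widest low-input peaks and the 5 regions of each class with the widest peaks. The members, lists and tests were chosen with earlier results of these data known. Peak lists carry no read counts, so precision is given by the number of libraries and by background coverage. Alternatives left out each library and the 8 µg libraries, changed limits, list length, smallest gap, peak threshold, depth adjustment and blocks. Genes and sequences were not analysed here.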

Additional observations from a re-analysis of the deposited data

Results flagged for a closer look

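Among 112 groups of 4 or 6 libraries tested for a sample far from the rest, 7 were flagged, and chance flags about 1 in 20. Of these, 3 concerned 8 µg replicate 1, whose share of peaks on shorter arms was 37.1% with the nearest other high-input list at 37.4%, and whose relative density was 0.948 on the short arm of chromosome 7 (next 0.976) and 1.15 on the long arm of chromosome 3 (next 1.13). The other 4 concerned 500 ng replicate 1, the low-input library that shares a code run with high-input libraries. It covered 31.4% of the high-input pairs with 1 peak, against 45.2% or more in the other low-input lists, its relative density was 0.880 on the short arm of chromosome 5 (next 0.861) and 0.981 on the long arm of chromosome 7 (next 1.01), and its peak at the fused place on chromosome 7 was 1477 bp wide (next 2750 bp). Without this library the difference in fused pairs was -33.7 percentage points.

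Data outside the comparison also carried a signal. 1 µg replicate 2 had a peak in 91.3% of the regions found in all 4 low-input and 0 of 6 high-input libraries, against 0.671% and 0.492% in the CK(salt) libraries. Over all merged regions the shares were 54.5% in 1 µg replicate 2, and 55.8% and 44.0% in the CK(salt) libraries. No cause was tested.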

How the results depend on the processing

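The share of peaks near centromeres, the share on shorter arms, the position along the arm and the counts of called arms (17 to 20) kept their direction under every alternative run, and their call wherever the test could reach the threshold. Lists of equal length, which fix the difference in peak number at 0 and so do not test it, ended the calls on median width (-36.4 bp) and wide peaks (-2.39 points) and gave +121 bp for the gap and -0.12 for log2 covered length. Harmonised lists ended those on peak number (0.23), wide peaks (-3.13), the gap (-618 bp) and close gaps (1.69), joining neighbours up to 300 bp apart those on wide peaks (-3.16) and the gap (-985 bp), and constant background coverage those on peak number (0.15) and the gap (-342 bp), with covered length at -0.19 and one-to-one width at -21.1 bp. Without the 8 µg libraries the gap was -648 bp, covered length -0.0592 and one-to-one width -10.8 bp. Counting gaps of 200 bp or less gave 0.0541 points. No low-input list held a gap below 219 bp, so this limit cannot test the result on close gaps. Reciprocal overlap of 0.5 gave a one-to-one width of 59.7 bp, and a limit of 5 Mb an end share of -0.27 points. Pairs from low-input lists gave 0.0118 points fused, and 3.39 in harmonised lists. Within the run holding both classes, values without a test were 0.0814 for peak number, -0.17 for covered length, -146 bp for the gap, 1.53 for close gaps, -30.5 bp for one-to-one width, -22.8 for fused pairs, 0.17 for ends and 0.96 for shorter arms. Windows of 500 kb gave 336 calls and of 2 Mb 123, fused places numbered 61 in harmonised lists and 219 without 8 µg, and constant coverage left 3221 one-to-one widths. High-input regions numbered 2154 in equal and 2271 in harmonised lists. Low-input regions numbered 4462 in equal lists, 3907 without 8 µg and 3872 when 0.5 of a region had to be covered. The cause of these moves was not tested.

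Leaving out each library gave -4.71 to -3.51 points for wide peaks, -1271 to -868 bp for the gap, 3538 to 5756 high-input and 2268 to 3687 low-input regions. Replicate numbers did not pair high-input with low-input libraries (correlations of deviations -0.13 to 0.14 over 6 pairs of 1 high and 1 low amount). Pairs of amounts within a class were not checked. At high input, replicate 1 of 5 µg and of 3 µg shared a code run and held 48672 and 48308 peaks. Replicate 2 of both amounts shared another run and held 58178 and 58704 peaks. The exact test treats these libraries as separate units. With the replicate block no call on a single value changed, fused pairs stayed at -30.0 points (adjusted p = 0.0267, 100 regroupings), and 19 arms and 214 windows passed. With the mean of each run as the unit the smallest p the test allows is 0.0571, so it cannot pass.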

Other observations

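Libraries outside the comparison gave these further values. Peaks lay within 2 Mb of a centromere in 10.0% of cases in 1 µg replicate 1 and 9.52% in 1 µg replicate 2, and in 11.4% at 100 ng. Of the 120 fused places, 1 µg replicate 1 had 2 or more peaks at 95 and 1 µg replicate 2 had 1 peak at 112. The CK(salt) libraries had 2 or more peaks at 80 and 71 of them.

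Peaks of the salt libraries were narrow, at median widths of 352 and 315 bp, against 427 and 401 bp in the CK(salt) libraries. Of the high-input pairs, 5.62% and 4.86% were covered by 1 peak in the salt libraries, against 13.8% and 11.1% in the CK(salt) libraries. Regions found only at high input had a peak in 59.4% and 56.6% of cases in the salt libraries, against 92.6% and 71.2% in the CK(salt) libraries. Over all merged regions these shares were 35.3% and 38.0% in the salt libraries, against 55.8% and 44.0% in the CK(salt) libraries. The salt lists were also shorter, with 32861 and 35907 peaks against 51710 and 40592.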
